A study of Homo sapiens with 18 samples.

Results

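The gene expression of 2 clones that carry the same genetic label, PCIF1 knockout, was compared: KO2 against KO1. Both are clonal lines of MEL624, an established human melanoma cell line, and each is 1 clone, so a difference between them is a difference between 2 clones. Whether the 2 clones differ in PCIF1 genotype cannot be told from the labels. Each clone had 3 input mRNA libraries, replicates A to C, which the series calls biological replicates. The third line, used here only for values set beside those of the clones, carries a random sgRNA and was labelled wild type, also with 3 libraries. All lines were grown in the same standard medium with serum and antibiotics. Of 15258 genes in the deposited table, 14465 had a mean of at least 1 TPM over the 6 clone libraries and were compared. TPM, a transcript's share of the library, is a level normalised for gene length and library size. The genes nearest to this limit were SLC9A9 (0.9990 TPM) below it and KATNAL2 (1.0007 TPM) above it.

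PCIF1 is the methyltransferase that adds a methyl group to the first transcribed adenosine beside the mRNA cap, giving the modification m6Am. It works at the cap of mRNAs that begin with adenosine, and it is distinct from the METTL3 complex that places m6A inside mRNAs. A clonal line grows from a single edited cell. Such a line also inherits that cell's silenced and active promoters and its chromosome copy numbers, and in cancer lines these vary between cells. Which positions were edited in each clone is not stated in the labels.

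The 6 clone libraries held 55728634 reads on genes, between 7848089 and 10452113 each. Across genes, the log2 levels of KO1 replicates correlated with r from 0.9893 to 0.9907, those of KO2 replicates with 0.9865 to 0.9891, and those of KO1 with KO2 libraries with 0.9653 to 0.9693. The melanoma label was checked against 11 marker genes, of which MITF, AXL and PRAME had values. The other 8, the pigment genes PMEL, MLANA and TYR among them, had no values, so the check rests on MITF, AXL and PRAME alone. AXL, a receptor kinase of dedifferentiated melanoma cells, was at 680 ± 24.2 TPM in KO1 and 662 ± 35.6 in KO2, and PRAME, a tumour antigen, at 116 ± 3.5 and 112 ± 0.62 (SD, n = 3 each). Of markers of other cell types, 1 of 12 immune, 3 of 10 endothelial, 4 of 10 fibroblast and 5 of 12 epithelial genes had values. Summed levels in KO1 and KO2 libraries were 0.77 to 1.62 and 0.711 to 1.16 TPM for the immune, 43.9 to 46.1 and 32.8 to 34.4 for the endothelial, 13.7 to 15 and 11.1 to 11.5 for the fibroblast, and 998 to 1050 and 940 to 1010 for the epithelial list. The epithelial sum is mostly keratin 18 (KRT18, 876 ± 15.4 TPM in KO1 and 798 ± 35.9 in KO2), which the control line also held at 979 TPM.

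The comparison asks how much gene expression differs between clones that share a label. With limma on the log2 values, 4165 of the 14465 genes (28.8%) passed an adjusted p of 0.05, of which 1710 were higher in KO2 (11.8%) and 2455 lower (17%). Most of these differences were small, since the median fold among called genes was 1.28. At least 2-fold differences were called for 353 genes (2.44%), 175 higher and 178 lower in KO2. At least 4-fold differences were called for 89 genes, 58 higher and 31 lower, and at least 8-fold differences for 45, 34 higher and 11 lower. The 3 libraries of one clone did not overlap those of the other for 6239 genes (43.1%). The median log2 difference over all tested genes was -0.04, so KO2 was slightly lower by its centre, and centring each library on its median turned the split into 2177 higher and 1783 lower. Calls of small differences therefore depend on the scaling, and named changes were read against this shift. Protein-coding genes were called in 31.4% of cases and long noncoding RNA genes in 16.7%. The types were not matched for level or reads, on which calls depend, so these shares do not rank them.

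**Figure D1:**
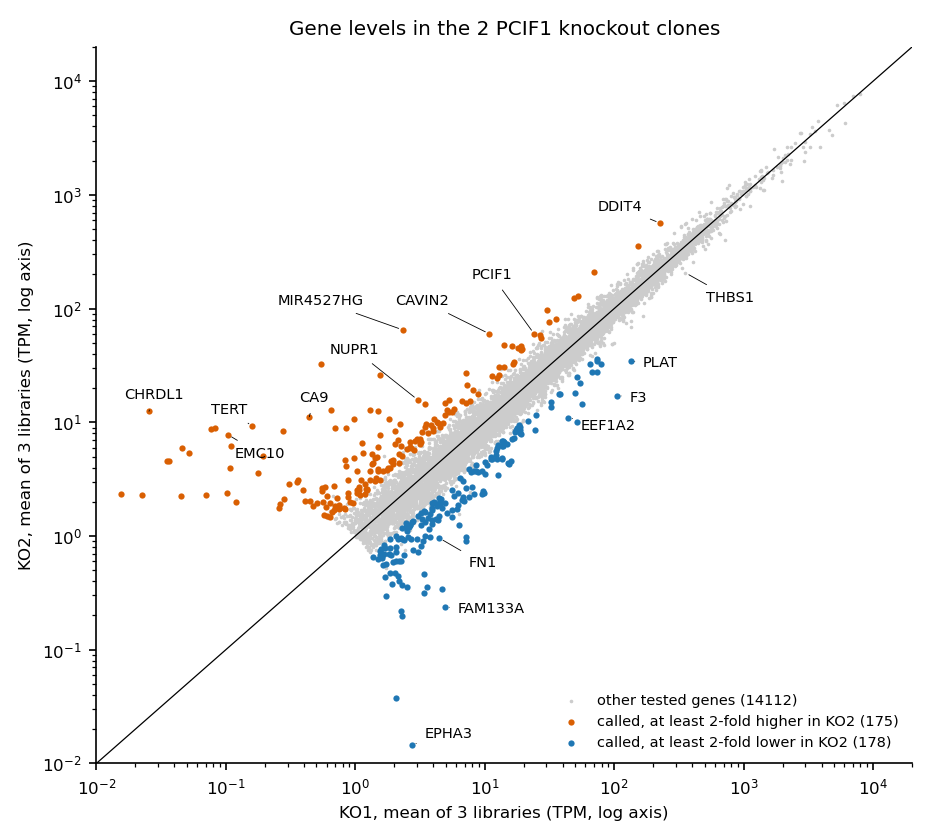
Mean level of each tested gene in KO1 (x axis) and KO2 (y axis), in TPM on log axes, each point the mean of 3 libraries. Orange points are the 175 genes called and at least 2-fold higher in KO2, blue points the 178 called and at least 2-fold lower, and the line marks equal levels. CHRDL1 and EMC10 stand far above the line, at 12.5 and 7.77 TPM in KO2, and F3 and PLAT lie below the line at high levels.

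PCIF1, the targeted gene, differed between the clones. Its level was 24.7, 22 and 25.3 TPM in KO1 libraries A to C and 58, 64.7 and 58.1 in KO2. Every KO1 library lay below every KO2 library, and the control libraries, at 55.2, 62 and 55.6 TPM, lay within or near the KO2 range. KO2 was 2.51 times KO1, a log2 difference of 1.33 (SE 0.0736, 95% confidence interval 1.17 to 1.49, limma adjusted p = 2.45e-06). For this gene alone, a two-sided exact permutation of the 3 and 3 libraries gave p = 0.1, the smallest that 3 against 3 can reach. A count over the whole gene does not show whether the transcript still encodes an active enzyme, so these levels check neither genotype.

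The largest differences were genes read in one clone and almost not in the other. With at most 3 reads over the 3 libraries of one clone and at least 2 TPM in the other, 17 genes were near 0 in KO1 and 5 near 0 in KO2. Of the 17, 7 had no read in KO1, 13 were protein coding, 16 were called by limma, and 7 also had at most 3 reads in the control line. Of the 5 near 0 in KO2, 3 had no read, 2 were protein coding, 4 were called and 1 also had at most 3 control reads. These genes were picked by the difference that limma tests, so the calls are no further evidence (28.8% of all genes were called). With a KO2 library left out, the count near 0 in KO2 was 8 (C), 11 (A) or 12 (B), since fewer reads were then summed. Folds below are ratios of read rates with an exact 95% counting interval, or lower bounds against 3 reads over the 3 libraries where a clone had no read. They cover counting error only.

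The upstream sequences of 4 such genes are shown because a promoter's CpG content is what DNA methylation can act on. Each is the 250 bases before the annotated start in RefSeq (GRCh38.p14), on the gene's own strand, 5′ to 3′, with each CG dinucleotide in capitals. The first pair belongs to genes near 0 in KO1, and the second pair to genes with no read in KO2.
CHRDL1: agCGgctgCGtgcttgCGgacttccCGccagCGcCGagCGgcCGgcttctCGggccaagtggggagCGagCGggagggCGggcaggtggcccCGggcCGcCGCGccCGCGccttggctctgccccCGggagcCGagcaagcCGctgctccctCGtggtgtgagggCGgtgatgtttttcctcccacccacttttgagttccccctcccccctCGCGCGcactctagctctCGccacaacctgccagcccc
GSPT2: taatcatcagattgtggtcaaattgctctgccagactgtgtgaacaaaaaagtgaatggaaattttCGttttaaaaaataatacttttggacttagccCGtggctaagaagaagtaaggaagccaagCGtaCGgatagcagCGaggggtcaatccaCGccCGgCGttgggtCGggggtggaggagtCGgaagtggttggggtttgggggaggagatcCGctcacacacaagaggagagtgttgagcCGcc
EPHA3: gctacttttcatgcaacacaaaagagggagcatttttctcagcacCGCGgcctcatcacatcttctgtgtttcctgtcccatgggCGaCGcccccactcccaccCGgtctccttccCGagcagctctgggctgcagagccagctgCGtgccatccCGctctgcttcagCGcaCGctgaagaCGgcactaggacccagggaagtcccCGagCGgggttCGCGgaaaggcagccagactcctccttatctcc
QPCT: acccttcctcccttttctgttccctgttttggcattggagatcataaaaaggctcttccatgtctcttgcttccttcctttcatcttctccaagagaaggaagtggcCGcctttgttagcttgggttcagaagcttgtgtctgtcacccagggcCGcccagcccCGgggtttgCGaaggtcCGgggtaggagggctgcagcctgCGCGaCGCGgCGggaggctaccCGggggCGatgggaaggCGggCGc
They lie at chrX:110795818-110796067 (minus strand), chrX:51743192-51743441, chr3:89107371-89107620 and chr2:37344380-37344629 (plus strand), and hold 27, 12, 15 and 14 CG dinucleotides. CG reads the same on both strands. A RefSeq promoter was matched for 10292 of the 14465 genes, with a median of 21 CG in such a window, and 86% held at least 10. No methylation was measured, so the counts describe the sequence alone.

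CHRDL1 encodes chordin-like 1, a secreted antagonist of bone morphogenetic proteins. It had 0, 0 and 0 reads in KO1 libraries and 128, 102 and 140 in KO2, where its level was 12.5 ± 0.57 TPM, at least 133-fold higher. The control libraries held 3, 4 and 1 reads. GSPT2, a paralogue of the translation release factor GSPT1, had 0, 1 and 0 reads in KO1 and 69, 57 and 56 in KO2, 196-fold higher (34.8 to 7800). Its control libraries held 58, 41 and 42 reads, so KO1 was the line that stood apart. SMOC1, a secreted calcium-binding matrix protein, had 0, 0 and 2 reads in KO1 and 101, 89 and 102 in KO2, 158-fold higher (43.2 to 1310), with 52, 38 and 32 in control. ELMO1, which activates Rac in cell migration, was 181-fold higher in KO2 (32.1 to 7200; 1 against 168 reads), with 185 reads in control. EDA2R, a receptor for ectodysplasin, was 34.5-fold higher (9.18 to 291; 2 against 64 reads), with 48 in control. These 4 genes, GSPT2, SMOC1, ELMO1 and EDA2R, were thus read in control and KO2 and nearly not in KO1.

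Other genes near 0 in KO1 were near 0 in the control line too. FAM50B, an imprinted retrogene, had no read in KO1 and 77 in KO2, at least 27.7-fold higher, against 1 in control. The long noncoding RNA LINC02437 was at least 15.1-fold higher (0 against 42 reads, 0 in control). TP73-AS1 had 2 reads in KO1, 320 in KO2 and 0 in control, 173-fold higher (47.4 to 1430), but it is antisense to another gene and whether reads were counted by strand is unstated, so its value is uncertain. In the other direction, EPHA3, an ephrin receptor kinase, had 50, 52 and 43 reads in KO1 and 0 in every KO2 and control library, so KO2 was at least 44.8-fold lower and KO1 was the line that stood apart. QPCT, the glutaminyl cyclase that forms pyroglutamate at protein ends, had 15, 13 and 14 reads in KO1, 0 in KO2 and 9, 6 and 11 in control, at least 13-fold lower in KO2.

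**Figure D2:**
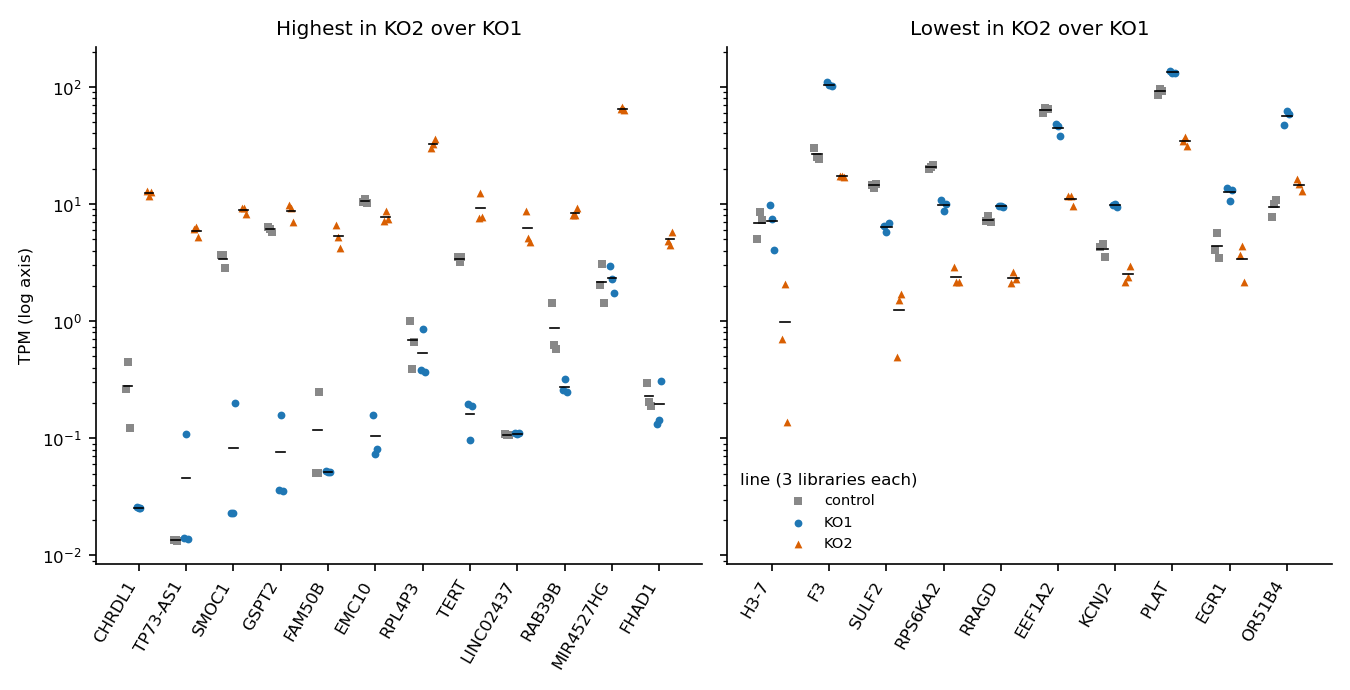
Level in TPM (log axis) in each of the 3 libraries of the control line (grey squares), KO1 (blue circles) and KO2 (orange triangles), with a bar at each mean, for genes with the highest (left) and lowest (right) KO2 to KO1 differences. Points near 0.01 to 0.1 TPM are libraries with few or no reads, whose value is set by the prior count. The choice of these genes required KO1 and KO2 points that do not overlap. EMC10 and GSPT2 show control points close to those of KO2.

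Among genes with reads in both clones, EMC10, part of the complex that inserts proteins into the ER membrane (chromosome 19, 50476400 to 50490871, hg38), was at 0.158, 0.0734 and 0.0812 TPM in KO1 and 7.15, 8.66 and 7.5 in KO2. The control line held 10.5, 11 and 10.2 TPM, so the KO1 libraries were the low ones. KO2 libraries lay below those of control, but that difference did not pass (log2 difference -0.45, limma adjusted p = 0.244). Between the clones the log2 difference was 6.30 (SE 0.272, limma adjusted p = 5.53e-07), from 8 reads in KO1 and 628 in KO2. TERT, the reverse transcriptase subunit of telomerase (chromosome 5, 1253147 to 1295068), was at 0.195, 0.0962 and 0.189 TPM in KO1, 7.65, 12.3 and 7.79 in KO2 and 3.55, 3.18 and 3.51 in control. KO1 lay below control and KO2 above it, with no overlap (log2 difference 5.89, SE 0.304, limma adjusted p = 1.8e-06; 5 against 316 reads). CA9, a hypoxia-induced carbonic anhydrase, was at 0.539, 0.266 and 0.523 TPM in KO1 and 12.9, 10.9 and 9.95 in KO2, both below the 40.2 to 49.7 TPM of control. RAB39B, a small GTPase of vesicle traffic, was at 0.257, 0.323 and 0.249 TPM in KO1 and 8.05, 8.05 and 9.26 in KO2. The noncoding microRNA host gene MIR4527HG was at 2.93, 2.29 and 1.73 TPM in KO1 and 64.7, 66.7 and 64 in KO2, with control at 1.44 to 3.05, so KO2 alone was high. RPL4P3, a processed pseudogene, read 0.539 TPM in KO1 and 32.7 in KO2, but reads of a near-identical copy can be assigned to it.

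F3 and PLAT were among the genes with the largest falls in KO2. F3 encodes tissue factor, the receptor that starts coagulation (chromosome 1, 94529173 to 94541759). It was at 110, 103 and 101 TPM in KO1, 17.4, 17.2 and 17 in KO2 and 30.1, 25.1 and 24.3 in control. Thus KO1 lay above and KO2 below every control library, and KO2 was lower by a log2 difference of -2.61 (SE 0.0778, limma adjusted p = 9.7e-08). PLAT, tissue plasminogen activator, showed the same order at 138, 132 and 132 TPM in KO1, 34.7, 37.7 and 31.4 in KO2 and 84.7, 96.5 and 92.9 in control (log2 difference -1.96, SE 0.0701, limma adjusted p = 1.76e-07).

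Further genes with large falls in KO2 have varied roles. RPS6KA2, a ribosomal S6 kinase downstream of ERK, was at 10.8, 8.79 and 9.96 TPM in KO1 and 2.89, 2.16 and 2.14 in KO2, with 19.8 to 21.5 in control. RRAGD, a GTPase that brings amino acid signals to mTORC1, was at 9.71, 9.66 and 9.4 TPM in KO1 and 2.13, 2.61 and 2.31 in KO2, on either side of control at 6.98 to 7.9. EEF1A2, a tissue-restricted elongation factor, was at 48.4, 45.9 and 38.1 TPM in KO1 and 11.6, 11.6 and 9.69 in KO2. SULF2, which removes sulfate groups from heparan sulfate outside the cell, was at 6.44, 5.81 and 6.87 TPM in KO1 and 0.49, 1.51 and 1.7 in KO2, while control held 13.7 to 14.9. KCNJ2, an inward rectifier potassium channel, was at 9.76, 9.96 and 9.45 TPM in KO1 and 2.15, 2.38 and 2.98 in KO2. EGR1, an immediate early transcription factor, was at 13.7, 10.7 and 13.3 TPM in KO1 and 3.69, 4.37 and 2.16 in KO2. No KO1 library of these 6 genes overlapped a KO2 library, and limma adjusted p values ran from 1.59e-06 (EEF1A2) to 0.000919 (SULF2).

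By the size of the TPM difference, among called genes with a log2 difference of at least 0.58 in size, abundant genes of chromosomes 3 and 10 led the higher side. IMPDH2, the rate-limiting enzyme of guanine nucleotide synthesis, rose from 765 ± 18.8 TPM in KO1 to 1220 ± 1.41 in KO2, RPL29 from 747 to 1150 and DDIT4, an mTORC1 inhibitor induced by stress, from 226 ± 11.4 to 565 ± 17.6 (SD, n = 3 each). On the lower side, the mitochondrial gene MT-ATP8 fell by more TPM than TGM2 and THBS1. It was at 1980 ± 212 TPM in KO1 and 1320 ± 57.9 in KO2 (SD, n = 3 each), a log2 difference of -0.59. Its overlap with another gene is described below. TGM2, a transglutaminase that crosslinks matrix proteins, was at 743, 712 and 714 TPM in KO1, 409, 416 and 369 in KO2 and 565 to 572 in control, and THBS1, the matrix protein thrombospondin 1, was at 360, 337 and 365 in KO1 and 206, 222 and 194 in KO2. THBS1 in both clones exceeded control, which held 133 to 141 TPM.

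Calls were not spread evenly along the genome. In running windows of 25 neighbouring tested genes, 21 stretches had at least 2 consecutive windows with a median log2 difference beyond 0.25 in size, 10 higher and 11 lower in KO2, which merged into 12 regions. They held 1246 genes, 8.61% of those tested, and 689 called genes, 16.5% of those called. Within them 55.3% of genes were called, against 26.3% outside, where 1165 were higher (8.81%) and 2311 lower (17.5%) in KO2. The pooled share does not hold for each region. On chromosome 10, 269 of 425 genes were called higher and 8 lower. In the chromosome 12 region 0 of 31 were called higher and 3 lower, and in the chromosome 19 region from 11551147, 2 of 42 were higher and 6 lower. Of the 89 genes called at 4-fold or more, 82 lay outside these regions. The stretches were found on the same values as the calls, so the shares describe these libraries and are no separate evidence.

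The 2 longest regions, on chromosomes 10 and 3, were higher in KO2. On chromosome 10, from 37297398 to 133523558 (96.2 Mb, hg38), 269 of 425 genes were called higher in KO2 and 8 lower, with a median log2 difference of 0.41 (1.32-fold). The median difference from control was 0.02 in KO1 and 0.42 in KO2. On chromosome 3, from 3126933 to 93980003 (90.9 Mb), 261 of 400 genes were higher and 7 lower, with a median of 0.34 (1.27-fold), and 0.05 in KO1 and 0.41 in KO2 against control. These medians share the control libraries and are given side by side only. The regions were defined by the running median, so the tested genes outside them lack such a shift by that definition. On chromosome 10, 11 of these 115 genes were higher and 17 lower (median -0.06), and on chromosome 3, 25 of 403 were higher and 82 lower (median -0.08). Genome copy number was not measured, and its part in these differences was not tested.

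Genes of these regions took part in several lists below. On chromosome 3, MITF, the master regulator of the melanocyte lineage, was at 24.3, 25.6 and 29.1 TPM in KO1 and 50.6, 47.5 and 52 in KO2, on either side of control at 36 to 38.3. Its log2 difference of 0.93 (SE 0.0707, limma adjusted p = 1.68e-05) exceeded the median of its region. ACY1, an aminoacylase, was at 49, 49.7 and 48.2 TPM in KO1 and 122, 127 and 125 in KO2, a log2 difference of 1.35, and shares reads with the readthrough gene annotated over it. TADA3, a subunit of histone acetyltransferase complexes, rose from 94.7 to 161 TPM (log2 difference 0.77, limma adjusted p = 2.83e-06). On chromosome 10, DDIT4 showed a log2 difference of 1.32 (SE 0.0423, limma adjusted p = 1.29e-07), with KO1 below and KO2 above all control libraries. PDLIM1, a cytoskeletal adaptor, rose from 330 to 534 TPM (0.69) and PSAP, the precursor of the saposins, from 359 to 569 TPM (0.66). With the running median of its neighbours subtracted PSAP was no longer called (0.15, limma adjusted p = 0.0695). MACROH2A2, a histone variant of silent chromatin, was at 1.06, 1.62 and 1.81 TPM in KO1 and 11.8, 15.9 and 9.99 in KO2 (log2 difference 3.08, limma adjusted p = 5.82e-05) and had no read in control.

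**Figure D3:**
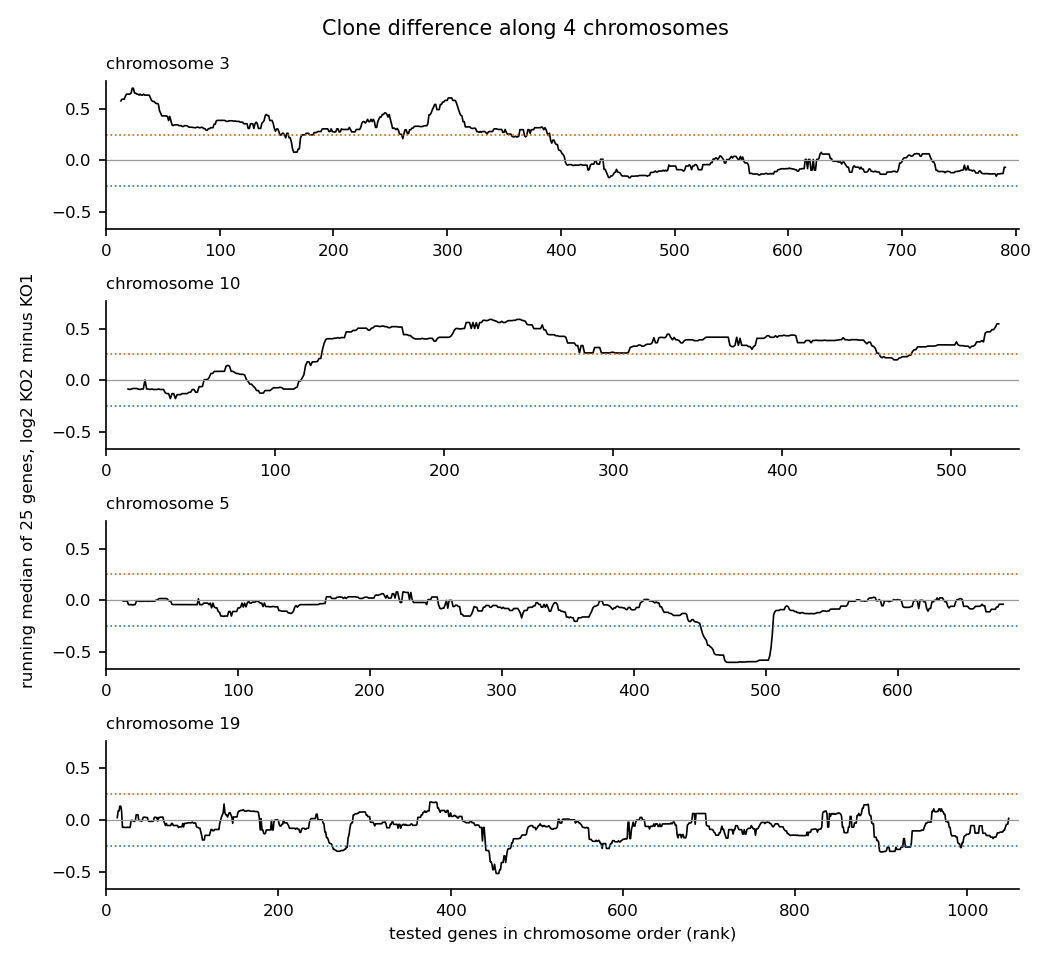
Running median over 25 neighbouring tested genes of the log2 difference KO2 minus KO1 (y axis) along 4 chromosomes, with genes in chromosome order by rank (x axis). Dotted lines mark 0.25 above and below 0. Much of the left part of chromosome 3 and of the right part of chromosome 10 lies above the upper line, and chromosomes 5 and 19 dip below the lower line in places.

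A compact region of chromosome 5, from 140547662 to 144170714, was lower in KO2. It holds the clustered protocadherins, neural adhesion proteins of which single cells express few, chosen by promoter methylation. Of 43 clustered protocadherin genes tested, 32 were called lower in KO2 and 0 higher, with a median log2 difference of -0.59 (17% of all genes were called lower, with a median of -0.04). The beta gene PCDHB8 was at 12.3, 9.72 and 10.6 TPM in KO1, 4.8, 6.49 and 5.42 in KO2 and 3.39 to 4.75 in control. PCDHB16 was at 9.69, 11.5 and 9.61 TPM in KO1, 5.4, 7.19 and 5.01 in KO2 and 2.77 to 3.65 in control. Neither was called once the median of the neighbours was subtracted (limma adjusted p = 0.0553 and 0.278). Clustered protocadherins make up 43 of the 79 genes of the region. The median of 51 neighbours is thus drawn largely from the same family, and its subtraction removes a shift that the family shares. In both genes the KO1 libraries were the highest and the KO2 libraries lay between them and the control. The genes of the alpha and gamma groups share 3′ exons and reads, so their single values are uncertain, and the 32 calls are not independent. The other lower regions included 5 clusters on chromosome 19, of 26 to 61 genes with regional medians from -0.22 to -0.28, and ZNF615, a zinc finger gene in one of them, fell from 6.69 to 3.96 TPM (limma adjusted p = 0.00299).

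Most cytosolic ribosomal protein genes were higher in KO2. Of 79 cytosolic ribosomal protein genes 57 were called higher and 0 lower, where 11.8% of all genes were higher, with a median log2 difference of 0.18 against -0.04 over all genes. RPSA, RPL32 and RPL29 rose most, by 0.69, 0.63 and 0.63 on the log2 scale, and lie in the chromosome 3 region. Outside the regions 50 of 72 were still called higher and 0 lower (median 0.17). The mean of the list over the 9 libraries was lowest in the KO1 libraries (-0.114, -0.084 and -0.106 on the log2 scale), near 0 in control (-0.029 to -0.008) and highest in KO2 (0.085, 0.075 and 0.145). The groups did not overlap.

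Translation factors followed in part. Among 13 subunits of eIF3, the scaffold of the initiation complex, 6 were called higher (46.2%, all genes 11.8%) and 0 lower (all genes 17%). EIF3G rose from 273, 258 and 257 TPM in KO1 to 340, 352 and 336 in KO2 (log2 difference 0.38, limma adjusted p = 4.97e-05). EIF3D rose by 0.25 (limma adjusted p = 0.000347). The group of cap-binding and related initiation factors was split, with 4 of 16 higher (25%) and 4 lower (25%). Among the lower were PABPC4, a poly(A)-binding protein, which fell by 0.22, and EIF4G2, a translation initiation scaffold, which fell by 0.21 on the log2 scale. Of 20 aminoacyl-tRNA synthetases, which charge tRNAs, 9 were called higher (45%) and 1 lower (5%), or 15 and 0 after median centring. IARS1 was at 193, 203 and 204 TPM in KO1, 307, 300 and 296 in KO2 and 268 to 280 in control, and MARS1 rose from 201 to 242 TPM.

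Most transcripts of mitochondrial DNA were lower in KO2. Of the 13 protein genes, 10 were called lower in KO2 (76.9%, all genes 17%) and 0 higher (all genes 11.8%), with a median log2 difference of -0.30. MT-CYB, cytochrome b of complex III, was at 2690, 2930 and 3240 TPM in KO1, 1910, 2020 and 2060 in KO2 and 1580 to 1650 in control, a log2 difference of -0.56 (SE 0.0598, limma adjusted p = 0.000118). MT-ATP6 of the ATP synthase fell from 3880 to 2620 TPM, while MT-CO1, at 6010 and 6380 TPM, did not pass the test, but was called higher with voom on the recovered reads (0.12, limma adjusted p = 0.0272). Summed over the 13 genes, KO1 libraries held 38800 to 45800 TPM, KO2 32900 to 34900 and control 34300 to 35000, so KO1 stood above both other lines. MT-ATP8 and MT-ATP6 overlap on the genome, and the pseudogene MTATP6P1 can share their reads. Nuclear genes of oxidative phosphorylation were called higher in 19 of 75 cases (25.3%) and lower in 3 (4%). Outside the regions these were 15 and 3 of 69 (median 0.04). The 3 lower were 1 without KO1 replicate A or C and 5 without KO2 replicate C. UQCRQ of complex III rose from 289 to 370 TPM, whereas NDUFA12 fell from 77.1 to 63.4 TPM.

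**Figure D4:**
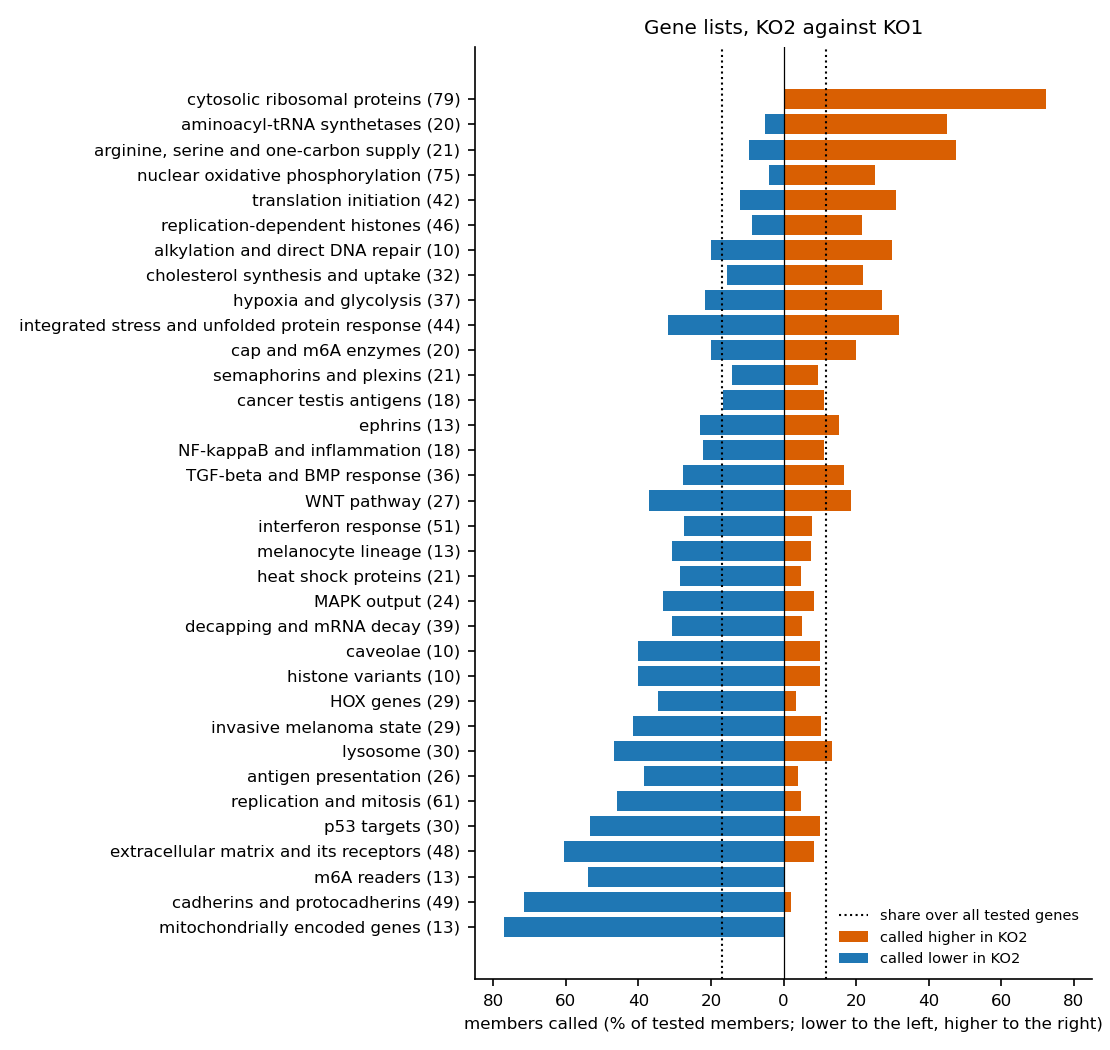
Share of the tested members of each gene list (number of members in brackets) called higher in KO2 (orange, to the right) and lower (blue, to the left), in percent, for lists of at least 10 tested members. Dotted lines mark the shares over all tested genes, 11.8% higher and 17% lower. Ribosomal proteins reach furthest to the right, and mitochondrially encoded genes and cadherins furthest to the left.

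In the integrated stress response the transcription factor ATF4 raises genes of amino acid supply, while the unfolded protein response raises chaperones of the endoplasmic reticulum (ER). Of 14 sensors and regulators 6 were called higher (42.9%; all genes 11.8%) and 1 lower, and of 15 amino acid targets 7 were higher (46.7%) and 3 lower (20%; all genes 17%). NUPR1, a stress-induced chromatin protein, was at 3.26, 2.81 and 3.02 TPM in KO1, 16.9, 15.2 and 15.4 in KO2 and 6.36 to 7.39 in control, with the clones on either side of control (log2 difference 2.39, SE 0.105, limma adjusted p = 5.92e-07). ASNS, asparagine synthetase, was at 138, 162 and 147 TPM in KO1 and 233, 240 and 262 in KO2, with 164 to 172 in control. ATF4 itself rose from 499 to 605 TPM. Of 15 ER chaperones and partners, 10 were called lower (66.7%) and 1 higher, and the difference between these groups of genes was not tested. HYOU1 was at 118, 117 and 124 TPM in KO1 and 85.8, 88.2 and 81.6 in KO2, HSPA5, the main ER chaperone, fell from 556 to 417 TPM, and CRELD2 fell from 14.8 to 9.85 TPM (limma adjusted p = 0.000532).

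Of 21 genes of arginine, serine and one-carbon supply 10 were called higher in KO2 (47.6%; all genes 11.8%) and 2 lower. CTH, which makes cysteine, rose from 24.1 to 36.9 TPM. In cholesterol metabolism 7 of 32 genes were higher (21.9%) and 5 lower (15.6%, all genes 17%). The 7 higher were 4 without KO1 replicate C. The 5 lower were 2 without KO1 replicate C or KO2 replicate A, and 3 without KO1 replicate A or B or KO2 replicate B. SQLE, squalene epoxidase, rose by 0.25 on the log2 scale, and ABCA1, a cholesterol exporter, fell from 2.29 to 1.18 TPM. Hypoxia and glycolysis genes were split, with 10 of 37 higher (27%) and 8 lower (21.6%), or 5 lower without KO1 or KO2 replicate C. Outside the chromosomal regions 5 of 32 were higher and 8 lower. Besides CA9, ALDOC, an aldolase isoform, was at 34.4, 34.7 and 37.1 TPM in KO1 and 82.9, 83.6 and 79 in KO2, with 36.7 to 43 in control. SLC16A3, a lactate exporter, was at 3.92, 3.3 and 3.15 TPM in KO1 and 1.07, 1.57 and 1.38 in KO2.

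Many genes of mitosis were lower in KO2 by small amounts. Of 30 mitosis genes, 21 were called lower (70%; all genes 17%) and 1 higher (median -0.19), and of 31 replication genes 7 were lower (22.6%) and 2 higher (median -0.04). The 3 higher of both groups were 5 without KO2 replicate B and 7 after median centring. AURKA, a spindle pole kinase, was at 131, 135 and 133 TPM in KO1 and 99.5, 96.3 and 95.2 in KO2 (log2 difference -0.46, limma adjusted p = 6e-05). CENPE, a kinetochore motor, fell by 0.36 and NDC80, a kinetochore subunit, by 0.34 on the log2 scale. CDK1, the mitotic kinase, was the 1 that was higher, from 65.9 to 95.5 TPM, and lies in the chromosome 10 region, without whose shift it was not called (0.10, limma adjusted p = 0.416). CCNE1, the cyclin of entry into S phase, rose from 14.4 to 19.9 TPM.

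Of 30 p53 targets 16 were called lower in KO2 (53.3%; all genes 17%) and 3 higher (10%; all genes 11.8%), with a median of -0.28. CDKN1A, the p21 inhibitor of cell cycle kinases, was at 175, 165 and 158 TPM in KO1, 86.7, 85.3 and 87.3 in KO2 and 139 to 142 in control. Its KO2 libraries lay below and its KO1 libraries above the control (log2 difference -0.94, SE 0.0408, limma adjusted p = 5.53e-07). MDM2, the ligase that degrades p53, fell from 32.3 to 18.6 TPM and BTG2, an antiproliferative protein, from 13.9 to 6.84. The p53 target EDA2R, near 0 in KO1, was among the 3 that were higher, a count of 1 without KO1 replicate A or B or KO2 replicate A or B.

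Histone genes were mixed. Of 46 replication-dependent histone genes, whose mRNAs mostly end without a poly(A) tail, 10 were called higher (21.7%; all genes 11.8%) and 4 lower (8.7%; all genes 17%). H3C4 was at 24.5, 35.4 and 27.5 TPM in KO1 and 51.3, 56.5 and 43.9 in KO2 (log2 difference 0.80, limma adjusted p = 0.00201), and H2BC12 fell from 124 to 98.1 TPM. These genes have near-identical copies, so single values are uncertain. Of 10 histone variants 4 were lower and 1, MACROH2A2, higher (2 higher without KO2 replicate C).

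Of 48 tested genes of the extracellular matrix and its receptors, 29 were called lower in KO2 (60.4%; all genes 17%) and 4 higher (8.33%; all genes 11.8%), with a median of -0.33 (29 and 3 of 46 outside the regions). FN1, fibronectin, was at 4.2, 4.24 and 4.96 TPM in KO1, 0.943, 1.21 and 0.716 in KO2 and 3.71 to 3.93 in control, so KO2 was the low line (log2 difference -2.25, SE 0.2, limma adjusted p = 4.11e-05). COL6A3, a chain of microfibrillar collagen VI, went the other way, at 13.6, 13 and 12.4 TPM in KO1 and 32.5, 30.9 and 27.9 in KO2, and there KO1 was the line away from control, at 32.5 to 33.6. Of 12 integrins 6 were lower and 0 higher. Of 14 proteases and inhibitors 10 were lower and 2 higher. ADAMTS1, a secreted protease, rose from 13.5 to 25.8 TPM and PLAU, urokinase, from 12.4 to 22.6, the latter in the chromosome 10 region.

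Of 29 genes of the invasive melanoma state, a dedifferentiated state known for matrix and YAP target expression, 12 were called lower in KO2 (41.4%; all genes 17%) and 3 higher (10.3%; all genes 11.8%). TNC, tenascin, was at 42.3, 43.7 and 45.2 TPM in KO1 and 25.9, 28.8 and 22.9 in KO2, and LOXL2, a collagen crosslinker, fell from 192 to 132 TPM. NT5E, the surface enzyme CD73, rose from 142, 149 and 132 TPM to 216, 220 and 215. Of 13 melanocyte lineage genes 4 were lower and 1, MITF, higher. SOX9, a neural crest transcription factor, was at 49.7, 45.4 and 48.1 TPM in KO1 and 29.1, 34 and 24.6 in KO2, MC1R, the melanocortin receptor, fell from 12 to 8.33 TPM and PAX3, a regulator of MITF, from 14.3 to 9.99. The summed melanocyte list was 350 to 357 TPM in KO1 and 339 to 346 in KO2, against 342 to 367 in control.

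Caveolae are small membrane pits built from caveolins and cavins. CAVIN2 was at 9.93, 11.1 and 11.3 TPM in KO1, 59.2, 60 and 61.2 in KO2 and 0.316, 0.546 and 0.505 in control, so both clones exceeded control with KO2 the higher clone (log2 difference 2.48, SE 0.182, limma adjusted p = 1.39e-05). CAV1 was at 1090, 1150 and 1120 TPM in KO1 and 784, 753 and 844 in KO2, and CAVIN1 fell from 656 to 454 TPM. Of the 10 caveolae genes 4 were lower (40%; all genes 17%) and 1 higher (10%; all genes 11.8%).

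Of 26 antigen presentation genes 10 were called lower in KO2 (38.5%; all genes 17%) and 1 higher (3.85%; all genes 11.8%). HLA-B fell from 7.78 to 3.65 TPM. HLA genes are similar to each other and reads may be split between them. CD74, the class II invariant chain, was at 28.4, 27.8 and 28.7 TPM in KO1 and 18.1, 19.6 and 17.6 in KO2, both below the 84.1 to 90.2 TPM of control. Of 51 interferon response genes, 14 were lower (27.5%) and 4 higher (7.84%). Without KO1 replicate B or C 9 were lower, in fits that also called fewer of all genes lower (1878 and 1675, against 2455). Without KO1 or control replicate C 2 were higher. With all libraries, 9 of the list's 18 sensors and signalling genes were lower. STING1, the adaptor for cytosolic DNA, was at 18.1, 19.8 and 19.8 TPM in KO1, 7.22, 8.51 and 8.15 in KO2 and 9.99 to 12 in control (log2 difference -1.27, limma adjusted p = 1.84e-05). OAS1, a sensor of double-stranded RNA, was at 10.7, 11.7 and 11.4 TPM in KO1 and 4.02, 4.88 and 5.42 in KO2. IFITM2, an antiviral membrane protein, rose from 52.1 to 77.9 TPM. Among 18 NF-kappaB and inflammatory genes 4 were lower (22.2%) and 2 higher (11.1%), near the shares of all genes (1 higher without KO1 replicate B or C or KO2 replicate A or B). IL1B, a cytokine, was at 4.16, 3.26 and 3.9 TPM in KO1 and 0.799, 1.2 and 0.94 in KO2, and ICAM1, an adhesion receptor for leukocytes, fell from 16.2 to 7.13 TPM.

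**Figure D5:**
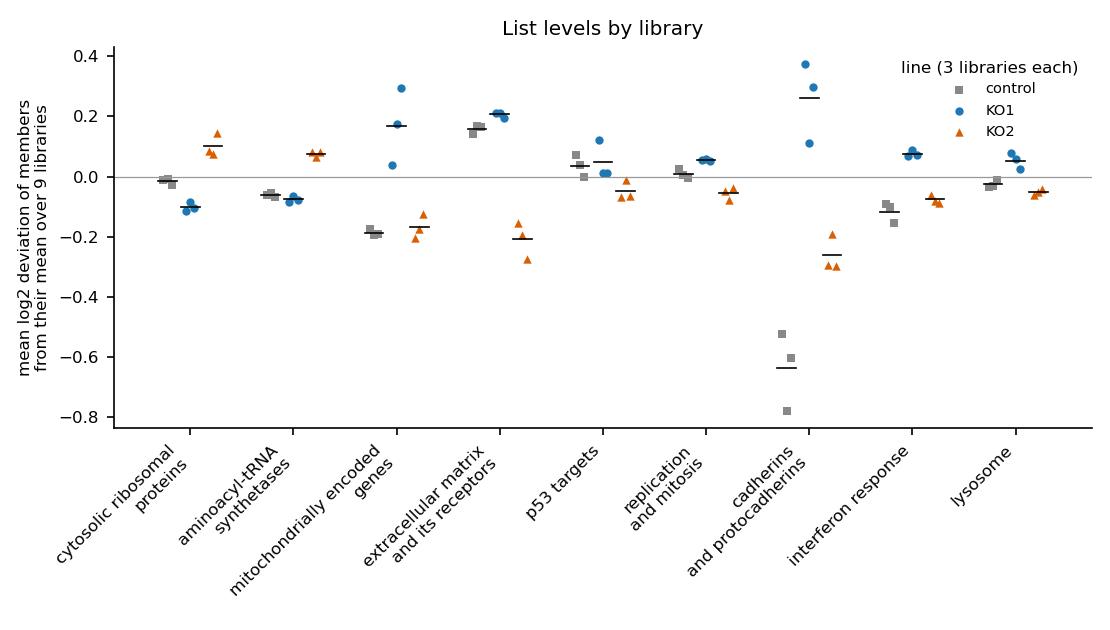
Mean over the tested members of 9 gene lists of each library's log2 deviation from the mean of the 9 libraries, for control (grey squares), KO1 (blue circles) and KO2 (orange triangles), with a bar at each mean. Ribosomal proteins run from -0.114 in KO1 to 0.145 in KO2, mitochondrially encoded genes stand above both other lines in KO1, and matrix genes fall to -0.275 in KO2.

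In MAPK output, the genes that ERK signalling switches on, 8 of 24 were called lower (33.3%; all genes 17%) and 2 higher (8.33%, below the 11.8% of all genes; 1 higher without KO1 replicate B or C or KO2 replicate B). EGR1, described above, and SPRY1, a feedback inhibitor, which fell from 6.49 to 3.22 TPM, were among the lower. PHLDA1 was at 198, 194 and 186 TPM in KO1 and 124, 136 and 120 in KO2. In the TGF-beta and BMP list 10 of 36 were lower (27.8%) and 6 higher (16.7%). BMP2 and BMP4, related ligands, went opposite ways: BMP2 was at 1.03, 2.13 and 0.994 TPM in KO1 and 3.11, 5.32 and 4.81 in KO2, and BMP4 at 15.8, 12 and 13.3 TPM in KO1 and 6.07, 8.42 and 6.08 in KO2. GDF15, a stress-induced ligand, rose from 26.5 to 58.3 TPM, FSTL3, which binds activin, from 32.5 to 55.6, and SMAD6, an inhibitor of BMP signalling, fell from 10.3 to 6.2. In the WNT pathway 10 of 27 were lower (37%) and 5 higher (18.5%). The receptor FZD8 rose from 3.86 to 9.39 TPM and FZD7 fell from 6.95 to 4.02, while LGR4, a receptor for R-spondins, fell from 21 to 14.3.

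Guidance molecules differed gene by gene. SEMA3E was at 3.9, 3.9 and 3.55 TPM in KO1 and 7.2, 7.61 and 6.73 in KO2, and SEMA3D fell from 11.5 to 7.7. NRP1, a semaphorin coreceptor, was at 54.1, 51.7 and 53 TPM in KO1 and 37.6, 38.1 and 37 in KO2, where control held 37.1 to 37.7, so KO1 alone was high. EFNB1, a transmembrane ephrin, rose from 12.8 to 25.9 TPM. Of 21 semaphorin and plexin genes 2 were higher (9.52%) and 3 lower (14.3%), near the shares of all genes (11.8% and 17%). Of 13 ephrin genes 2 were higher (15.4%) and 3 lower (23.1%), also not far from those shares. The 3 lower ephrin genes were 5 without KO2 replicate B and 1 without KO1 or KO2 replicate C. HOX genes, which keep positional identity, were lower in 10 of 29 cases (34.5%, all genes 17%) and higher in 1 (3.45%, all genes 11.8%, and 2 without KO2 replicate C). They were lower in 3 to 6 when KO1 replicate A (4), B (5) or C (6) or KO2 replicate A (3) was left out. After median centring 5 were lower. Over all tested genes those called lower also fell, from 2455 to 1833, 1878, 1675 and 1910 in these fits and to 1783 after centring. HOXA3 rose from 3.16 to 5.42 TPM and HOXC9 fell from 16.7 to 12.

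Lysosomal genes were lower in 14 of 30 cases (46.7%; all genes 17%) and higher in 4 (13.3%; all genes 11.8%; 9 lower without KO1 replicate C). LAMP1, the main membrane protein, was at 110, 105 and 111 TPM in KO1, 78.6, 81.6 and 77.9 in KO2 and 78.8 to 81.4 in control, so KO1 alone was high. CTSF, a cathepsin, rose from 4.3 to 10 TPM, and PSAP and LIPA, both higher, lie in the chromosome 10 region, without whose shift LIPA was not called either (0.10, limma adjusted p = 0.371). Of 21 heat shock protein genes 6 were lower (28.6%) and 1 higher (4.76%). The 6 fell to 3 without KO1 replicate A or C, where genes called lower over all tested genes also fell, from 2455 to 1833 and 1675. The 1 higher was lost without KO1 replicate A or B, control replicate A or any KO2 replicate. HSPB1, a small chaperone, was at 210, 182 and 183 TPM in KO1 and 138, 135 and 135 in KO2. Of 10 genes of alkylation and direct DNA repair 3 were higher and 2 lower (0 or 1 lower without a KO1 library or KO2 replicate B or C), and MPG, the alkyladenine glycosylase, rose from 101 to 134 TPM. Of 18 cancer testis antigen genes 2 were higher (11.1%) and 3 lower (16.7%), near the shares of all genes. The 2 higher were 1 without KO1 replicate B or C or KO2 replicate A or C. FAM133A was at 3.81, 5.84 and 5.18 TPM in KO1 and 0.146, 0.431 and 0.133 in KO2, close to control at 0.0287 to 0.398 (log2 difference -4.58, SE 0.894, limma adjusted p = 0.00409). Among the markers of other cell types, TIE1, an endothelial receptor kinase, fell from 28.4 to 16.9 TPM, and SERPINB5, an epithelial serpin, had 5 reads in KO1 and 106 in KO2. The part of other cell types in these values was not tested.

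PCIF1 belongs to the genes that write, read and decay methylated and capped mRNA. Of 20 cap and m6A enzymes 4 were called higher (20%; all genes 11.8%) and 4 lower (20%; all genes 17%), or 5 and 1 after median centring. Without single clone libraries the 4 lower were 0 (KO1 C), 1 (KO1 A, KO2 A or C) or 2 (KO1 B, KO2 B), and the 4 higher were 2 without KO1 B or C or KO2 A. RNMT, the cap guanine methyltransferase, was at 90.8, 92.1 and 91.7 TPM in KO1, 115, 107 and 115 in KO2 and 134 to 140 in control (log2 difference 0.30, limma adjusted p = 0.000507). Of 13 m6A readers 7 were lower (53.8%) and 0 higher. The 7 fell to 3 after median centring or without KO1 replicate C and to 4 without any other single clone library. Over all tested genes those called lower also fell in these fits, from 2455 to between 1675 and 2235. YTHDF1, a cytoplasmic reader, was at 69.9, 68.4 and 74.3 TPM in KO1 and 62.2, 57.2 and 57 in KO2, with 56.3 to 59.3 in control. Decay factors were lower in 12 of 39 cases (30.8%) and higher in 2 (5.13%; 1 without KO1 replicate C or KO2 replicate A). Nonsense-mediated decay held 6 of the 12, of its 10 genes, among them the endonuclease SMG6, which fell from 39.7 to 30.9 TPM. DDX6, a helicase of decapping bodies, was at 54.7, 55.5 and 60.2 TPM in KO1, 41.3, 39.6 and 38.9 in KO2 and 38.1 to 41.1 in control, so KO1 alone was high.

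PCIF1 acts on mRNAs that begin with adenosine, so the annotated start base was compared. By the RefSeq start, 45.3% of tested genes with a match began with A, 40.8% of the genes called higher in KO2 (n = 1284 with a match) and 49.5% of those called lower (n = 1877). C as start base went the other way, at 12.2%, 17.2% and 8.9%. Of 63 matched ribosomal protein genes 74.6% began with C and 17.5% with A, and without them the genes called higher began with A in 41.9% and with C in 14.9%. An annotated start is not the start used in these cells, and PCIF1 mRNA, start base and list membership overlap, so the shares are a description with no test. The promoter windows of genes called at 4-fold or more held fewer CG, with a median of 14 in the 41 matched genes higher and 9 in the 20 lower in KO2, against 21 over all. At least 10 CG were found in 63.4%, 50% and 86% of these windows.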

How the data were processed

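Input mRNA libraries of the 2 clones and the control line were compared as 3 against 3 from the authors' deposited log2 TPM values, on hg38. Per the labels' protocols, RNA was taken with Trizol, mRNA was purified in 2 rounds and the library kit was directional. The submitters' processing notes name edgeR 3.12.1 in R 3.3.3, featureCounts, deepTools 3.0.2, HISAT2 2.0.4 and SAMtools 1.7, with no role or order. Strand setting and annotation are unstated there. The 9 m6A libraries were not analysed here.

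The steps between the deposited values gave whole reads for 100% of genes, within 1e-06 of a read. All genes averaging 1 TPM or more over the 6 clone libraries were fitted with limma 3.58.1 (R 4.3.3, variance trend) on all 9 libraries, which leave 6 residual degrees of freedom, with Benjamini-Hochberg adjustment over 14465 genes and a threshold of 0.05. Each line is 1 clone, so the p-values reflect library-to-library spread only. Of 15258 identifiers 15138 were found in GENCODE 44.

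The genes and lists were chosen with earlier results of these data known. Named genes are PCIF1, the largest changes by log2 and by TPM, the 3 highest and 3 lowest called members of each list, the 3 called genes with the smallest p of the longest stretches, and the most abundant genes near 0 reads in one clone. The largest changes were taken only from called genes whose KO1 and KO2 libraries do not overlap. Those by log2 also had to reach a set mean level in the higher clone. ATF4, ELMO1, HSPA5, MDM2 and MT-CO1 fall outside this rule and were chosen after their values were seen. The fit was tested on simulated data. Alternatives were the libraries fitted, pseudocount, filter, centring, quantile normalisation, variance trend, replicate block, voom, neighbour, GC and length corrections, and leaving out each library. A few named genes are not reported here.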

Additional observations from a re-analysis of the deposited data

Results flagged for a closer look

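Of 34 genes with the largest changes, 14 lay on opposite sides of the control line in the 2 clones, with every KO1 library on one side and every KO2 library on the other. The 34 were chosen for large called differences between the clones, so passing that contrast is no further evidence, and such a choice favours opposite sides. Over all tested genes 534 (3.69%) lay so. Both differences from control share the control libraries.

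In 9 genes the KO1 libraries were below and the KO2 libraries above those of control. CHRDL1 differed by 8.93 on the log2 scale between the clones, with -3.25 in KO1 and 5.68 in KO2 against control. SMOC1 differed by 7.56 (-6.16 and 1.40) and GSPT2 by 7.20 (-6.70 and 0.50). The values of these 3 genes in KO1 rest on the prior count, since they had at most 2 reads there. In KO2 against control SMOC1 and GSPT2 did not pass (limma adjusted p = 0.158 and 0.491). TERT differed by 5.89 (-4.48 and 1.40) and RAB39B by 4.94 (-1.54 and 3.40). DDIT4 differed by 1.32 (-0.70 and 0.62), IMPDH2 by 0.68 (-0.07, limma adjusted p = 0.0734 in KO1, and 0.61), RPL29 by 0.63 (-0.15 and 0.48) and RPL32 by 0.63 (-0.15 and 0.48), all 4 on chromosomes 10 and 3.

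In 5 genes the KO1 libraries were above and the KO2 libraries below those of control, and both differences passed. F3 differed by -2.61 on the log2 scale (1.99 in KO1 and -0.62 in KO2 against control), RRAGD by -2.03 (0.39 and -1.65), KCNJ2 by -1.97 (1.24 and -0.73), PLAT by -1.96 (0.56 and -1.40) and TGM2 by -0.86 (0.35 and -0.51).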

How the results depend on the processing

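The count of called genes, 4165, lay between 2949 and 3976 with 1 library left out and was lowest without KO1 replicate C. Those higher in KO2 then numbered 1274 to 1660 and those lower 1675 to 2316. List counts with a library left out thus stand beside fewer calls over all genes. It was 3632 with the clone libraries alone, 3412 with the running median of neighbours subtracted and 4666 with voom on the recovered reads. PCIF1 was called under every alternative, with a log2 difference of 1.27 to 1.37 when a library was left out. Genes in stretches numbered 794 with log2(TPM + 5) and 99 with the neighbours' median subtracted, which removes such stretches by construction, and 1193 to 1280 with a library left out. Genes near 0 reads numbered 15 to 22 in KO1 and 4 to 12 in KO2 with a library left out. In that count, leaving out KO2 replicate A, B or C gave 11, 12 and 8. Replicates with the same letter did not deviate together (r of -0.027, -0.095 and 0.027), so the letters do not pair the libraries. The fit with the replicate block called 3513 genes, 1493 higher and 2020 lower, and gave PCIF1 1.33 (limma adjusted p = 6.41e-05). Calls of small differences are limited by scaling, and genes at 1 to 2 TPM by reads.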
